A study of Homo sapiens with 8 samples.

Results

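The polo-like kinase genes PLK1, PLK2, PLK3, PLK4 and PLK5 were examined in lists of accessible regions from mitotic human cells, as 5 of the 19974 protein-coding genes of the RefSeq table (GRCh38.p14) on chromosomes 1 to 22 and X. They were chosen as the family of the kinase that the study inhibits, by gene symbol and not by any measured value. Every peak that overlapped a gene or the 5 kb on either side of it was taken, which gave 88 peaks out of 1546498 in the 8 lists together, between 7 and 15 peaks per list. Of these, 19 lay at PLK1, 14 at PLK2, 18 at PLK3, 8 at PLK4 and 29 at PLK5.

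Accessibility had been measured by ATAC-seq, which uses Tn5 transposase to cut and tag DNA that nucleosomes do not cover. The cells were hTERT RPE-1, a telomerase-immortalised line from human retinal pigment epithelium, of genotype Plk1-/- EGFP-Plk1as, so every library came from cells without endogenous Plk1 that depend on an EGFP-tagged, analog-sensitive Plk1. All cultures were held in prometaphase with 5 µM STLC, an inhibitor of the kinesin Eg5, for 16 h, collected by shake-off, and then kept in STLC for 2 h with either 0.5% DMSO (4 libraries) or 10 µM 3MB-PP1, a bulky purine analog that blocks Plk1as (4 libraries). There was no group with unmodified Plk1 and none without STLC, so the groups compare active with inhibited transgenic kinase in arrested cells. The mitotic index was above 95% and 50000 cells went into each reaction. The series' design text calls the 4 libraries of a group biological replicates. How the transgene was introduced and whether the line is 1 clone are not given in the sources used here.

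Each library is represented by its own list of 150577 to 252752 peaks, with no read totals, so the depth of a library is unknown. Peaks were narrower in the 3MB-PP1 lists (medians of 269 to 324 bp) than in the DMSO lists (355 to 409 bp), which bears on every width given here. Libraries numbered 1 and 3 held a larger share of peaks on chromosome X (0.868% to 0.933%) than those numbered 2 and 4 (0.595% to 0.694%) in both groups. What this split stands for is not given in the labels, and differences are given within odd and within even numbers where a result turns on them. Marker genes were looked up to describe the line. KRT8, an epithelial keratin, and MITF, a pigment cell transcription factor, had a peak at the start site in 8 of 8 lists. RPE65 and RLBP1, genes of the mature visual cycle, had one in 0 of 8, and KRT18 and BEST1 had no annotated start site. Since 49.9% of genes with an annotated start site had such a peak in all 8 lists, these markers do not establish the identity of the line. These peaks measure open DNA, not expression.

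Polo-like kinases are serine/threonine kinases that pair a catalytic domain with polo-box domains, which in PLK1 dock the kinase on phosphorylated substrates. PLK1 drives mitotic entry, centrosome maturation, chromosome attachment and cytokinesis, and its gene is among the cell cycle genes that are repressed in G1 and expressed in G2 and mitosis. PLK2 and PLK3 are induced by growth factors and by stress, PLK4 starts centriole duplication, and PLK5, which in humans encodes a protein without a complete kinase domain, is mainly known from the nervous system.

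The sequence before the start site is shown for the 4 genes with an entry in the RefSeq promoter table, because a peak lay over it in every list and because the genes differ in the elements that it holds. Each run is the 250 bases before the annotated start on the strand of the gene, 5′ to 3′, in build GRCh38.p14. They lie at chr16:23678639-23678888 (plus strand) for PLK1, chr5:58460087-58460336 (minus strand) for PLK2, chr1:44800127-44800376 (plus strand) for PLK3 and chr4:127880643-127880892 (plus strand) for PLK4. Capitals mark matches to the elements searched for, on either strand.
PLK1: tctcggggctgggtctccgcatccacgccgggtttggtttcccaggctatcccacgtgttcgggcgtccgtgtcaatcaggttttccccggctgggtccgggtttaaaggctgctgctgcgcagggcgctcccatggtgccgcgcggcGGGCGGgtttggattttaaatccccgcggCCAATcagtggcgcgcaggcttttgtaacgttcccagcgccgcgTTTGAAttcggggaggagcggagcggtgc
PLK2: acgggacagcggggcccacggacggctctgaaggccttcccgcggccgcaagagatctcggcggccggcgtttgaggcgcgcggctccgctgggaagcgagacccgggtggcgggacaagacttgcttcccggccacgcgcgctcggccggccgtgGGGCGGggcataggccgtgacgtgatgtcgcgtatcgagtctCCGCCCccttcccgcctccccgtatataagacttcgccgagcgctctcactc
PLK3: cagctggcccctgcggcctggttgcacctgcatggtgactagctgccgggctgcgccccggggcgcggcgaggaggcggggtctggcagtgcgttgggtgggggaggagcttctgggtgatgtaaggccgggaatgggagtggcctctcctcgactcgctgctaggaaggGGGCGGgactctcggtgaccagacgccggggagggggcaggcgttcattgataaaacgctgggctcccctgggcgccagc
PLK4: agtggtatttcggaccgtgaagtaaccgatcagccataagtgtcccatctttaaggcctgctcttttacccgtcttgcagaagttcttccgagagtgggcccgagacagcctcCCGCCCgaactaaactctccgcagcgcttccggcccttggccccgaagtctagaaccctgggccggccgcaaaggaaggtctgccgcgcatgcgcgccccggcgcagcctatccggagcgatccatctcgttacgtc
PLK5 was not in that table.

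The elements searched for on both strands were the cell cycle genes homology region or CHR (TTTGAA), which is bound by the DREAM and MuvB complexes that time cell cycle genes, the CCAAT box (CCAAT), bound by NF-Y, the GC box (GGGCGG), bound by Sp1-like factors, the cAMP response element (TGACGTCA) and an E2F-like element (TTTCGCGC, TTTGGCGC or TTTCCCGC). PLK1 held a GC box from 102 to 97 bases before the start, a CCAAT box from 73 to 69 bases before it and a CHR from 29 to 24 bases before it. PLK2 held 2 GC boxes, 1 on each strand, PLK3 held 1, and PLK4 held 1, on the strand opposite to the gene. No match to the cAMP response element or the E2F-like element was found in these windows. Among the 35116 windows of this length in the table, 13.3% held a CHR, 32.0% a CCAAT box, 42.6% a GC box, 1.65% a cAMP response element and 2.32% an E2F-like element. A match describes letters, not binding. The share of G and C was 64.8% at PLK1, 71.2% at PLK2, 70% at PLK3 and 60.8% at PLK4, against a median of 58% over the table.

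The first comparison places the peaks. PLK1 to PLK4 each had a peak over the annotated start site in 8 of 8 lists, which 49.9% of the 15812 genes with an annotated start site had (7887 genes), and PLK5 had no region that all 8 lists called. Merged by any overlap, the 88 peaks formed 22 regions, of which 5 were called in all 8 lists and 8 in a single list. The 5 shared regions are the 4 start sites and a region beyond the end of PLK3. The peak at the start covered the whole 250 bases shown in each list, except for PLK4 in 3MB-PP1 replicate 2, where it reached 244 bp before the start.

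**Figure D1:**
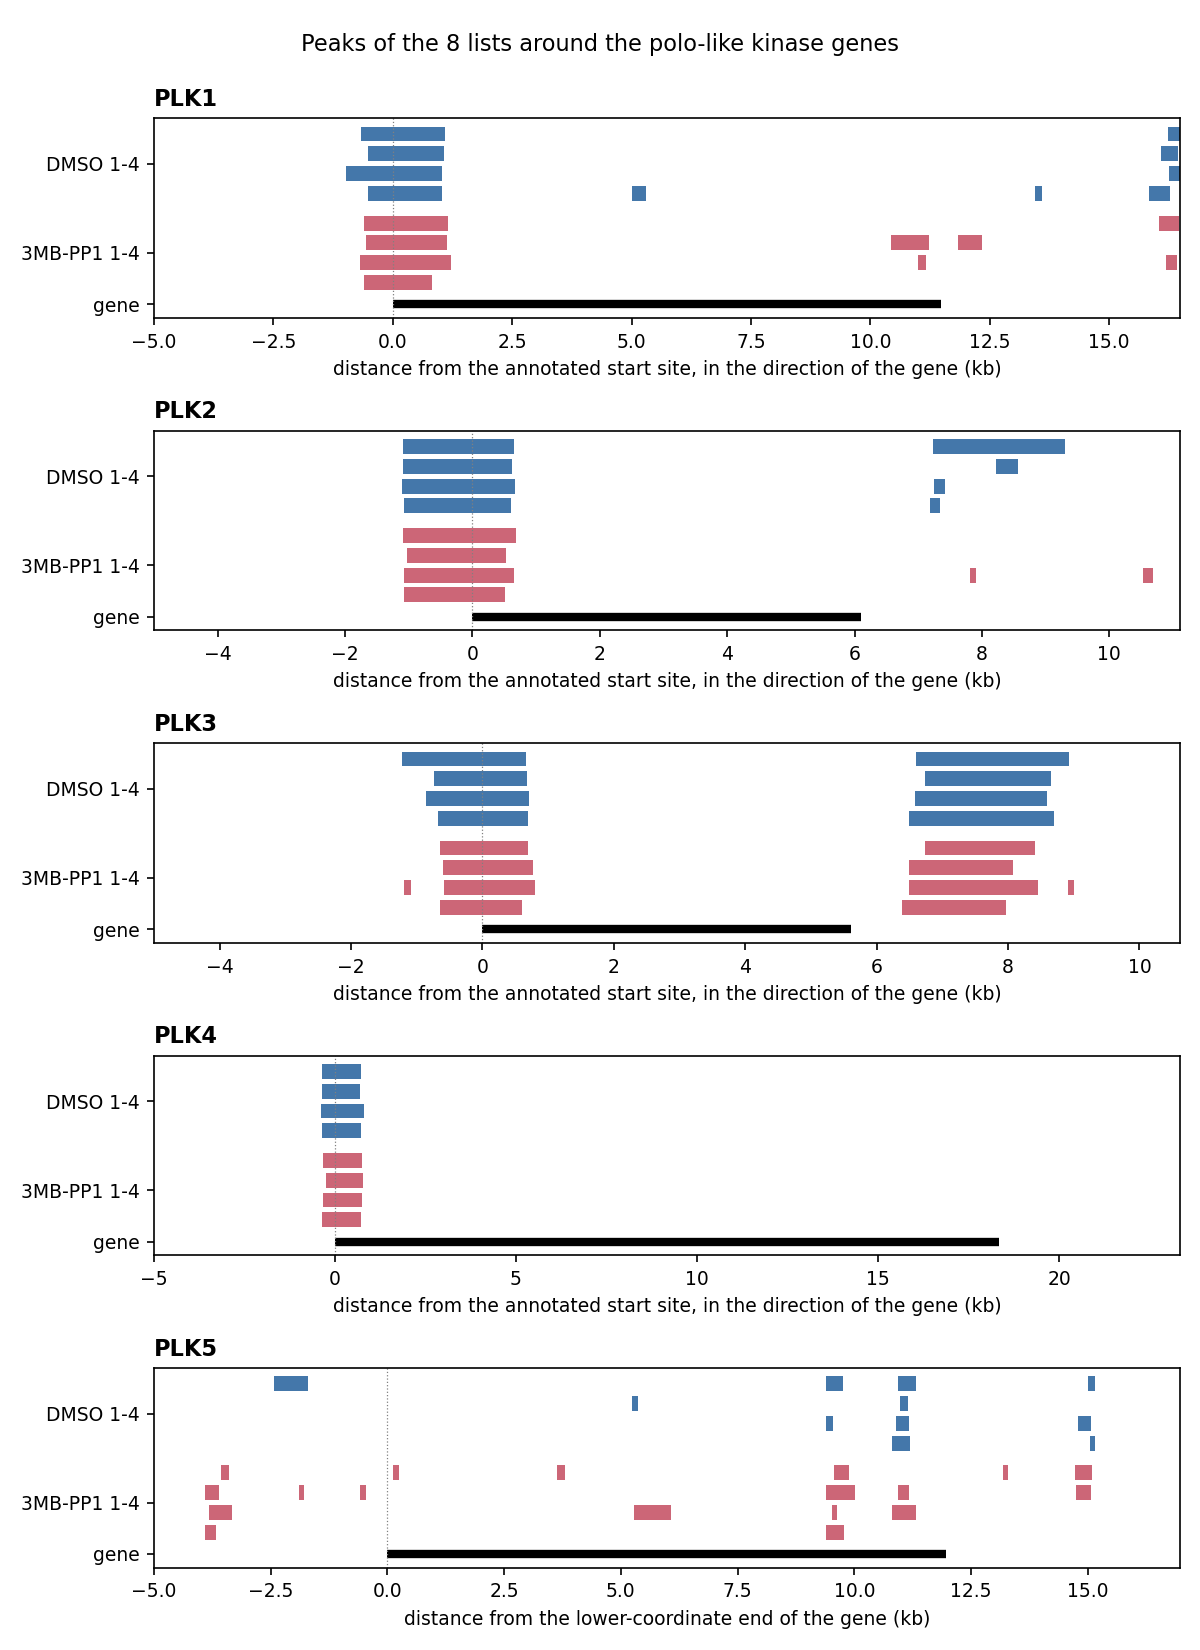
Peaks of the 8 lists in the gene and 5 kb either side of PLK1 to PLK5, against distance in kb from the start site (for PLK5, which has no strand in the tables used, from the end with the lower coordinate). Blue bars are peaks of the 4 DMSO lists, red bars those of the 4 3MB-PP1 lists, replicates 1 to 4 from top to bottom, and the black bar is the gene. PLK1 to PLK4 show a peak over the start in 8 of 8 lists, PLK4 shows no other peak, and PLK5 shows short peaks that differ from list to list.

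PLK1 lies on chromosome 16 from 23678889 to 23690367, between DCTN5, which ends upstream, and ERN2, which overlaps its downstream end. Its start-site peak was broad and ranked below those of its relatives. In the DMSO lists the peak was 1755, 1592, 2005 and 1543 bp wide in replicates 1 to 4, and in the 3MB-PP1 lists 1760, 1692, 1910 and 1426 bp. The groups overlapped over nearly their whole range. The difference of -26.75 bp was small beside the SD of 208 bp with DMSO and 202 bp with 3MB-PP1 (n = 4 each, two-sided exact permutation test over 70 assignments, p = 0.886, adjusted p = 0.931 over 7887 genes). Over the genes with a start-site peak in all 8 lists the median difference in this width was -156 bp, and 89.6% of those genes had a negative difference.

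The height of a peak can only be ranked within its own list, since the pileup, p, fold and q of each peak are the authors' own values and carry no stated scaling between libraries. By pileup, the PLK1 start-site peak stood at the percentile 91.7, 91.4, 93.3 and 82.3 of its list in DMSO replicates 1 to 4 and at 89.3, 86.7, 85.7 and 85.9 with 3MB-PP1. In the DMSO lists 3 of the 4 values lay above all 3MB-PP1 values, and replicate 4 lay below all of them. DMSO averaged 89.7 ± 4.97 and 3MB-PP1 86.9 ± 1.66 (SD, n = 4 each), and the difference of -2.78 points was not larger than the spread (two-sided exact permutation p = 0.343, adjusted p = 0.851). It was -4.98 points in odd and -0.582 points in even replicate numbers. Without DMSO replicate 4 it was -5.23 points and without DMSO replicate 3 -1.59 points. Ranked by fold enrichment, the means were 78.0 ± 22.2 and 59.7 ± 7.05 (SD, n = 4 each), a difference of -18.3 points that also missed the threshold (two-sided exact permutation p = 0.143, adjusted p = 0.626). Lists of different length share no scale, so a percentile by itself shows no change in accessibility.

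The evidence for the PLK1 start-site peak was modest in most lists. Its -log10 q was 7.12, 4.72, 7.02 and 2.20 with DMSO and 3.04, 2.24, 2.28 and 2.52 with 3MB-PP1, so a minimum of 5 kept it in DMSO replicates 1 and 3 alone. By comparison, the PLK4 start-site peak had values of 13.1 to 47.4 in the 8 lists. Averaged over the 8 lists, 13.4% of the 7887 genes with a start-site peak in every list had a lower percentile than PLK1 (88.3, against a median of 96.8 over genes), while 73.8% had a narrower peak (1710 bp, against a median of 1393 bp).

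Within the PLK1 gene, cells of this genotype carry a changed locus and a transgene, and fragments from a transgene with the coding sequence could be placed on the exons of PLK1. The interior of the gene, from 2 kb inside either end, spans 7.479 kb. It held 1 peak in 1 of the 8 lists, in DMSO replicate 4, from 5019 to 5308 bp after the start (290 bp wide, percentile 68.9, -log10 q 1.48). The interiors of 16814 protein-coding genes, measured the same way, held 0.505 to 0.868 peaks per 10 kb in the 8 lists, so few peaks are called over a stretch of this length in general. A row of peaks over the body of PLK1 was not seen. Near its downstream end, a region from 10433 to 11235 bp after the start was called in 3MB-PP1 replicates 2 and 3 and in no DMSO list. Exon positions were not used here, and these lists hold no reads, so neither the deletion nor the transgene could be examined. This limit holds for the width and rank of the PLK1 start-site peak as well, where a part of either was not tested.

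Beyond PLK1, a region inside the neighbouring gene ERN2, 15835 to 16525 bp after the PLK1 start (chr16:23694724-23695414), was called in 4 of 4 DMSO lists and in 3MB-PP1 replicates 1 and 3. It was 221 to 439 bp wide with a -log10 q of at most 2.04. In DMSO replicate 4 this peak, at a percentile of 88.5, ranked by pileup above the PLK1 start site itself, but its fold enrichment was lower (2.19 against 2.53). Taking the strongest peak of the window in place of the start site, the PLK1 values were 91.2 ± 1.99 with DMSO and 86.9 ± 1.66 with 3MB-PP1 (SD, n = 4 each). This difference of -4.32 points, lower in 4 of 4 pairs of the same number, missed the threshold (two-sided exact permutation p = 0.0571, adjusted p = 0.514 over 16857 genes). Ranked by -log10 p, it was -2.07 points (two-sided exact permutation p = 0.543).

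**Figure D2:**
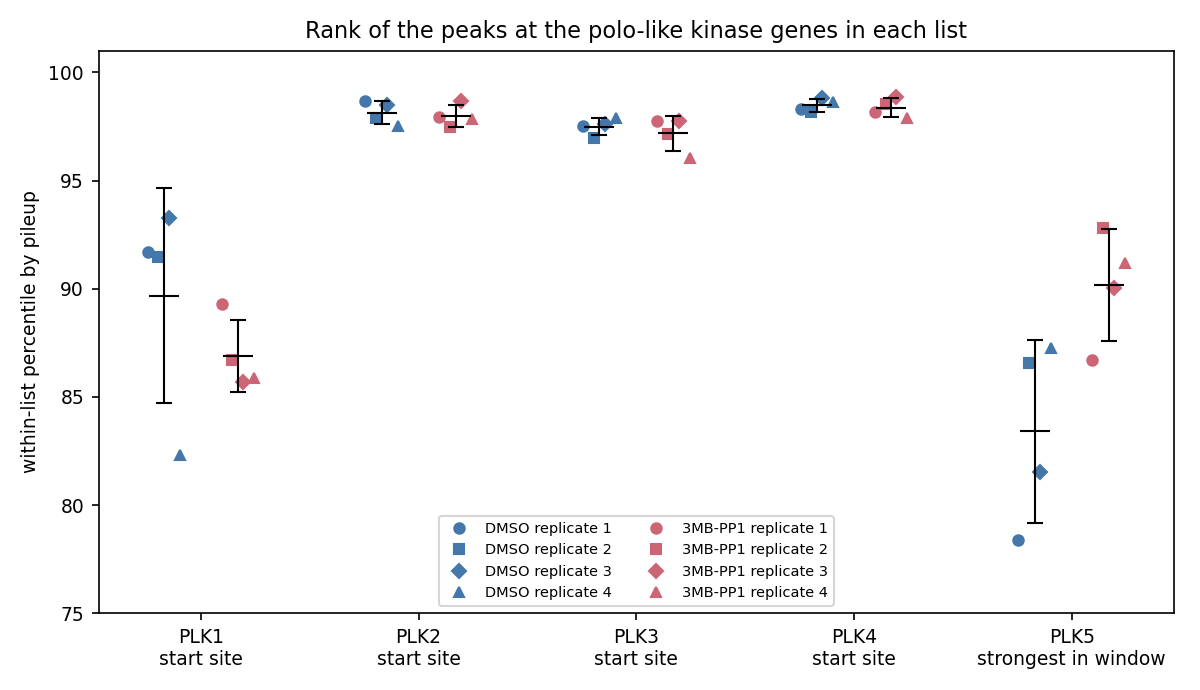
Within-list percentile by pileup of the start-site peak of PLK1 to PLK4 and of the strongest peak in the window of PLK5, for each library. Marker shapes are replicate numbers, horizontal bars are means and error bars the SD (n = 4); the axis starts at 75. PLK2, PLK3 and PLK4 lie between 96.1 and 98.9 in every list, while PLK1 spans 82.3 to 93.3 and PLK5 78.4 to 92.8.

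PLK2 lies on chromosome 5 from 58453982 to 58460086, on the minus strand, with no other gene in its window. Of the 4 start-site peaks, that of PLK2 had the smallest SD in upstream reach in both groups. The peak reached 1089, 1083, 1104 and 1076 bp before the start with DMSO and 1089, 1026, 1080 and 1073 bp with 3MB-PP1, a difference of -21 bp (two-sided exact permutation p = 0.229). Its width was 1744, 1710, 1769 and 1679 bp with DMSO and 1773, 1558, 1728 and 1589 bp with 3MB-PP1. The groups overlapped, and the difference of -63.5 bp was within their spread (two-sided exact permutation p = 0.343, adjusted p = 0.531). Its percentile was 98.1 ± 0.530 with DMSO and 98.0 ± 0.508 with 3MB-PP1 (SD, n = 4 each, two-sided exact permutation p = 0.743).

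Outside the start site, PLK2 differed between lists in a region downstream of the gene. That region, 7182 to 9310 bp after the start (chr5:58450776-58452904), was called in 4 of 4 DMSO lists and in 3MB-PP1 replicate 3 alone. It was not 1 shared site, since the peak of DMSO replicate 1, 2085 bp wide, joined short peaks of 92 to 357 bp at separate places. Those of DMSO replicates 3 and 4 overlapped each other. Those of DMSO replicate 2 and 3MB-PP1 replicate 3 overlapped no other short peak. In the lists that called the region the -log10 q was at most 2.30 and the percentile at most 49.3. Through this region, the covered length of the PLK2 window (base pairs inside a peak) was 3829 bp in DMSO replicate 1. It was 2067, 1930 and 1842 bp in the other DMSO lists and 1773, 1558, 1966 and 1589 bp with 3MB-PP1. The difference of -695.5 bp (two-sided exact permutation p = 0.0857, adjusted p = 0.483 over 19974 genes) was -225 bp without DMSO replicate 1. With each list reduced to its 150577 best peaks by p, it was -732 bp and the groups did not overlap (two-sided exact permutation p = 0.0286, adjusted p = 0.247). In those equal lists 11% of genes were lower without overlap and 0.551% higher, and PLK2 was the 1 of 5 members called, at -261 bp without DMSO replicate 1.

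PLK3 lies on chromosome 1 from 44800377 to 44805990, and its start-site peak reached less far upstream with 3MB-PP1. The start-site peak was 1882, 1423, 1571 and 1372 bp wide with DMSO and 1338, 1382, 1394 and 1245 bp with 3MB-PP1. The 3MB-PP1 peak was the narrower in 4 of 4 pairs of the same number, but the groups overlapped. The difference of -222.25 bp (two-sided exact permutation p = 0.0857, adjusted p = 0.269) was near the median of -156 bp over all 7887 genes, of which 35.4% had a difference as low or lower.

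The narrowing at PLK3 lay on the upstream side. The peak reached 1224, 738, 858 and 674 bp before the start with DMSO and 650, 605, 585 and 642 bp with 3MB-PP1, so every 3MB-PP1 value lay below every DMSO value. The means were 873.5 ± 246 bp and 620.5 ± 30.7 bp (SD, n = 4 each). This difference of -253 bp had the smallest p that the design allows (two-sided exact permutation p = 0.0286), with an adjusted p of 0.286 over 7887 genes, where no gene had a lower one. The reach was measured after the widths had been seen. Among those genes, 9.81% had groups that did not overlap with a shorter reach under 3MB-PP1 and 0.165% with a longer one, and the median difference was -68 bp. PLK3 was the 1 of 4 members so called, against that background.

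The PLK3 result rested unevenly on the libraries. The difference in reach was -423.5 bp in odd and -82.5 bp in even replicate numbers, and -136 bp without DMSO replicate 1. Permuting the treatment only within pairs of the same number gave an exact p of 0.125, the smallest which that scheme can give. In 3MB-PP1 replicate 3 a separate peak of 104 bp lay at -1188 to -1085 bp from the start, inside the stretch that the DMSO replicate 1 peak covered. Downstream of the start the PLK3 peak reached 687.5 ± 23.3 bp with DMSO and 718.25 ± 92.9 bp with 3MB-PP1 (SD, n = 4 each, two-sided exact permutation p = 0.514). Peaks of the 3MB-PP1 lists were narrower as a whole, and the part of this in the PLK3 reach was not tested.

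A second region of the PLK3 window was called in 8 of 8 lists, 6381 to 8999 bp after the start (chr1:44806758-44809376). Merged over the lists, it covers the start sites of the neighbouring genes DYNLT4 and BTBD19. The peaks of 3MB-PP1 replicates 2 and 4 ended short of the BTBD19 start (chr1:44808523), at 44808451 and 44808342. By pileup the region ranked above the PLK3 start site in 8 of 8 lists. The strongest peak of this window by pileup is therefore not that of PLK3. By fold enrichment and by -log10 q the order was the reverse in every list, with the PLK3 start-site peak the stronger. The strongest peak by pileup was 2336, 1918, 2004 and 2203 bp wide with DMSO and 1667, 1579, 1952 and 1585 bp with 3MB-PP1. All 3MB-PP1 values except replicate 3 lay below all DMSO values, and the difference of -419.5 bp missed the threshold (two-sided exact permutation p = 0.0571, adjusted p = 0.266). Together the PLK3 regions covered 4218, 3341, 3575 and 3575 bp with DMSO and 3005, 2961, 3541 and 2830 bp with 3MB-PP1, a difference of -593 bp (two-sided exact permutation p = 0.0571, adjusted p = 0.453).

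By rank, the PLK3 start site was close to level between the groups on the pileup scale and lower with 3MB-PP1 on the fold scale. Its start-site percentile by pileup was 97.5 ± 0.382 with DMSO and 97.2 ± 0.787 with 3MB-PP1 (SD, n = 4 each, two-sided exact permutation p = 0.629). Ranked by fold enrichment, which sets the pileup against a local background, the values were 93.9, 93.5, 94.3 and 93.5 with DMSO and 90.3, 91.1, 92.4 and 70.2 with 3MB-PP1. These groups did not overlap (difference -7.78 points, two-sided exact permutation p = 0.0286, adjusted p = 0.576), and 3MB-PP1 replicate 4 stood far below the others, with a difference of -2.51 points without it. Among the 7887 genes, 1.29% were lower without overlap on this scale and 3.49% higher. In lists of equal length, the PLK3 percentile by pileup was also lower without overlap, by -0.905 points (two-sided exact permutation p = 0.0286, adjusted p = 0.218). There 10.5% of genes were lower in this way and 2.55% higher, so 1 of 4 members stands beside a common pattern.

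PLK4 lies on chromosome 4 from 127880893 to 127899224 and has 3 annotated start sites, the last 738 bp after the first. Its start-site peak was the narrowest of the 4 in each list and, in the mean over lists, the highest ranked, by less than its spread over PLK2. It was the only peak that any list called in its window. The width was 1090, 1045, 1183 and 1092 bp with DMSO and 1100, 1010, 1089 and 1090 bp with 3MB-PP1, so 6 of the 8 values lie between 1045 and 1100 bp. The difference of -30.25 bp was within the spread (two-sided exact permutation p = 0.457, adjusted p = 0.624). The peak ended 688 to 789 bp after the first start site in the 8 lists and reached 361, 356, 393 and 361 bp upstream with DMSO and 341, 244, 341 and 356 bp with 3MB-PP1. DMSO values were equal to or above all 3MB-PP1 values, and the difference of -47.25 bp missed the threshold (two-sided exact permutation p = 0.0571, adjusted p = 0.324). It was -21.75 bp without 3MB-PP1 replicate 2, and -59.1 bp without 3MB-PP1 replicate 4, where the groups did not overlap (two-sided exact permutation p = 0.0286).

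The PLK4 percentile by pileup was 98.5 ± 0.296 with DMSO and 98.4 ± 0.437 with 3MB-PP1 (SD, n = 4 each, two-sided exact permutation p = 0.6). By fold enrichment it was 99.8, 99.8, 99.7 and 99.8 with DMSO and 99.2, 99.7, 99.5 and 99.2 with 3MB-PP1. On that scale the groups did not overlap, with a difference of -0.381 points (two-sided exact permutation p = 0.0286, adjusted p = 0.576). This makes 2 of 4 members lower by fold rank, against 1.29% over all genes, but on this scale alone. Ranked by -log10 p, the groups overlapped at PLK3 (-0.744 points, two-sided exact permutation p = 0.2) and at PLK4 (-0.165 points, two-sided exact permutation p = 0.314). By pileup in the whole lists they overlapped at both genes as well. Averaged over the 8 lists, 72.7% of genes with a start-site peak in every list ranked lower by pileup than PLK4 and 21.9% had a narrower peak.

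**Figure D3:**
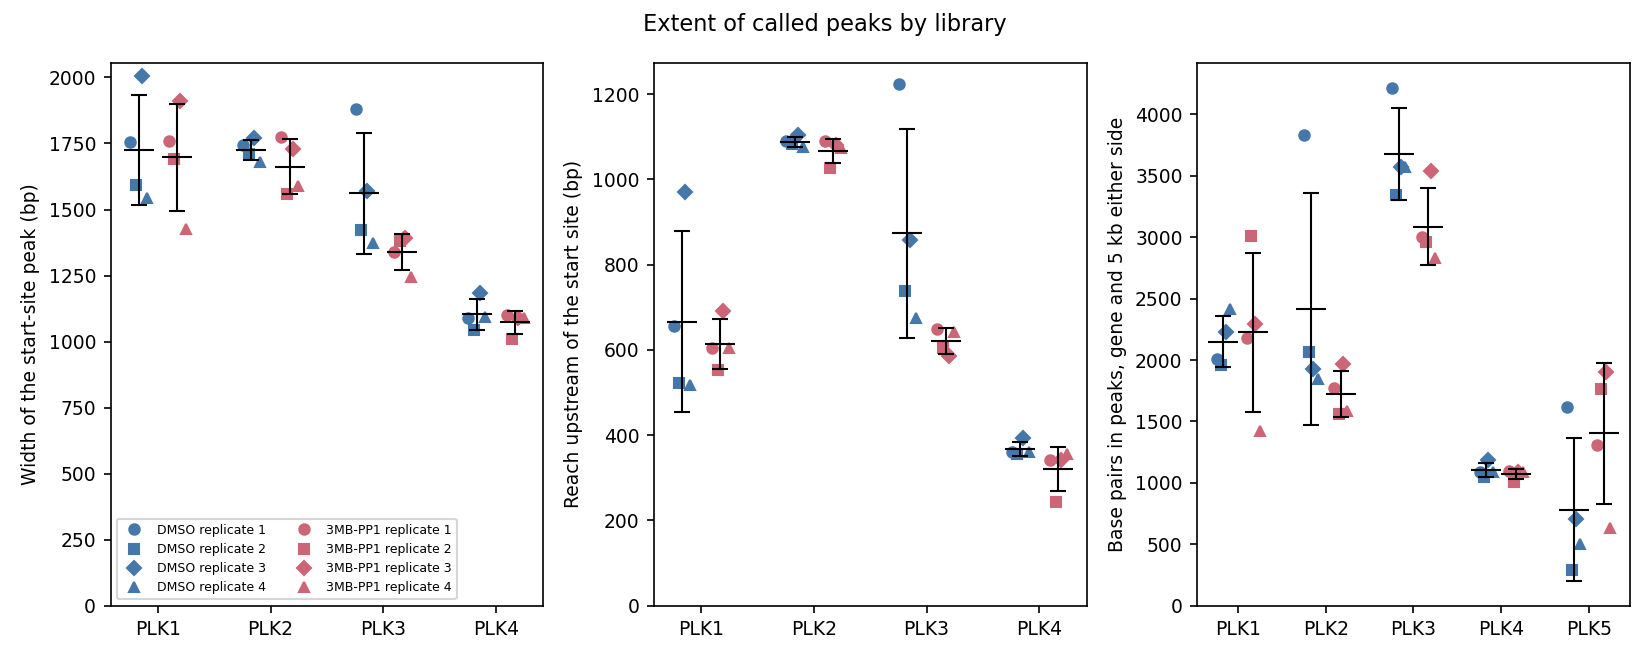
Width of the start-site peak, its reach upstream of the start site, and base pairs inside peaks in the gene and 5 kb either side, all in bp, for each library (marker shapes are replicate numbers, bars are means, error bars the SD, n = 4). In the middle panel the 4 DMSO values of PLK3 (674 to 1224 bp) lie above its 4 3MB-PP1 values (585 to 650 bp); in the right panel DMSO replicate 1 of PLK2 (3829 bp) stands apart.

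PLK5 lies on chromosome 19 from 1524077 to 1536046, next to the long non-coding RNA gene LOC107985337, and its strand is not in the tables used. Its peaks were many, short and weak. The 29 peaks fell into 10 regions, none called in more than 6 lists, and their -log10 q lay between 1.16 and 2.82. Inside the gene, a region 9392 to 10013 bp from the lower-coordinate end (chr19:1533469-1534090) was called in 2 DMSO and 4 3MB-PP1 lists, and a region 10815 to 11317 bp from it (chr19:1534892-1535394) in 4 DMSO and 2 3MB-PP1 lists. No list called a peak over either end of the gene.

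In a region at -3914 to -3331 bp from the lower-coordinate end (chr19:1520163-1520746, inside LOC107985337), every 3MB-PP1 list (4 of 4) and no DMSO list (0 of 4) called a peak. These calls were not 1 shared site. The peak of replicate 1 (chr19:1520509-1520693) did not overlap those of replicates 2 and 4, and only the wider peak of replicate 3 joined them. No base was called in all 4 3MB-PP1 lists. In replicates 1 to 4 the peaks were 185, 319, 483 and 245 bp wide, at percentiles of 86.0, 89.0, 80.2 and 87.8. Their -log10 q was 1.19 to 1.66, near the weakest that the lists hold (a largest q of 0.0996 to 0.1). This was 1 of the 22 regions, and 0 of 22 showed the opposite pattern, while 0.148% of the 588244 regions of the genome were called in this way with 3MB-PP1 and 0.12% with DMSO. The region was picked out after its calls were seen, so they are a description, with no test. With each list reduced to the 150577 peaks of the shortest, 2 of the 4 calls were lost, and no call reached a -log10 q of 5.

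The covered length of the PLK5 window was 1618, 294, 708 and 503 bp with DMSO and 1309, 1766, 1899 and 634 bp with 3MB-PP1. The groups overlapped over most of their range, and the difference of 621.25 bp missed the threshold (two-sided exact permutation p = 0.171, adjusted p = 0.577). It was 32 bp in lists of equal length and 152 bp with 10 kb either side. The strongest peak stood at 78.4, 86.5, 81.5 and 87.2 with DMSO and at 86.7, 92.8, 90.0 and 91.2 with 3MB-PP1. It was higher with 3MB-PP1 in 4 of 4 pairs (6.76 points, two-sided exact permutation p = 0.0571, adjusted p = 0.514), but it was a different region from list to list, and ranked by fold enrichment the difference was -14.6 points.

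Set side by side, the start-site percentile fell in the order PLK4, PLK2, PLK3, PLK1 in the mean over lists (98.4, 98.1, 97.3 and 88.3). PLK4 exceeded PLK2 by 0.359 ± 0.498 points and PLK2 exceeded PLK3 by 0.726 ± 0.651 points (mean and SD over 8 lists), so these neighbours lie close to or within their spread. PLK3 exceeded PLK1 by 9.05 ± 3.78 points, in 8 of 8 lists. The PLK1 locus is changed in all these cells, and the part of this in its rank was not tested. The share of the window inside peaks gave another order, with 21.7% at PLK3, 12.8% at PLK2, 10.2% at PLK1, 4.97% at PLK5 and 3.84% at PLK4, and a median of 5.12% over genes. In that order PLK5 and PLK4 were in either sequence in 4 lists each.

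**Figure D4:**
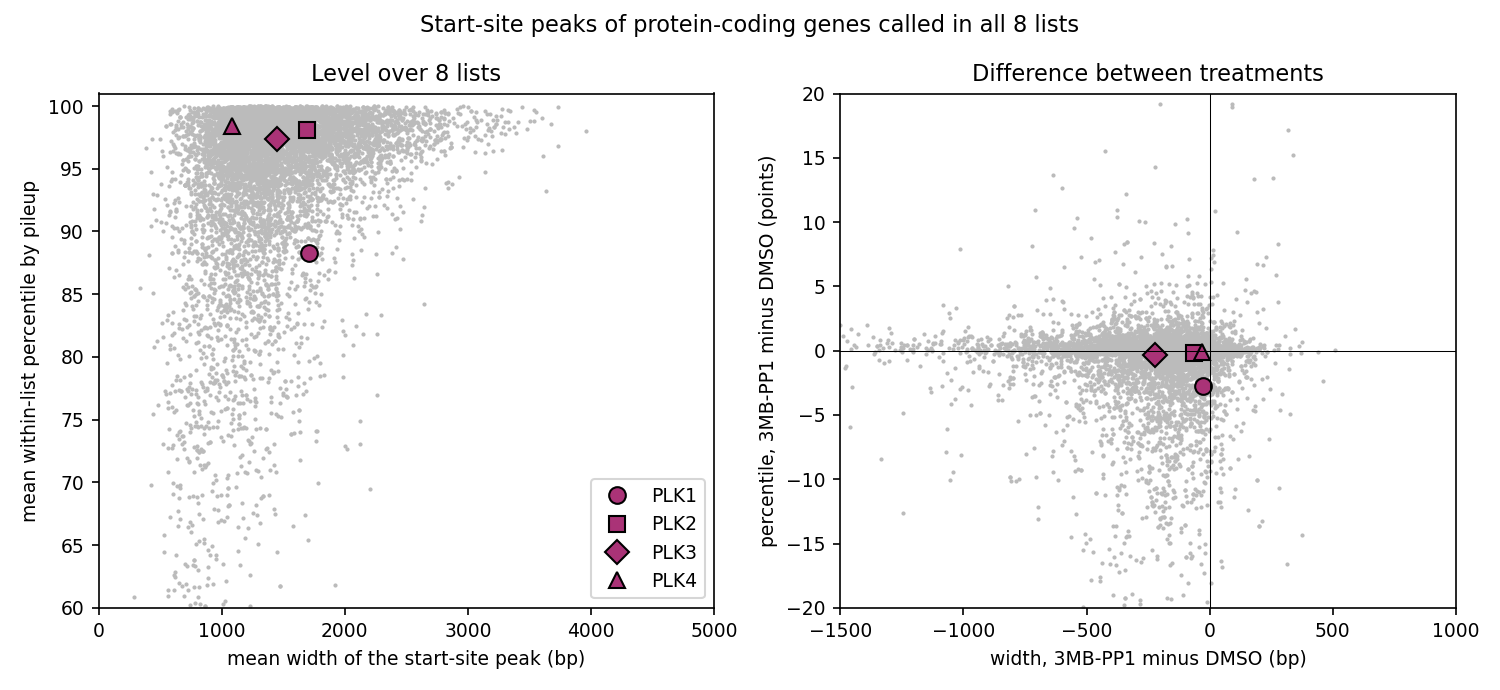
Start-site peaks of the 7887 protein-coding genes called in all 8 lists (grey points) with PLK1 to PLK4 marked. Left, mean width in bp against mean within-list percentile by pileup over 8 lists; right, difference in width in bp against difference in percentile points, 3MB-PP1 minus DMSO; 83 genes in the left and 60 in the right panel lie outside the axes. PLK1 lies below the other members in percentile, and in the right panel the 4 members lie inside the cloud of all genes.

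On the other measures, unscaled, in the whole lists and with 5 kb either side, no member was called. For covered length, 0 of 5 members had groups that did not overlap, where 6.28% of genes were lower with 3MB-PP1 and 1.06% higher. For the number of peaks it was also 0 of 5 (0.16% lower and 2.45% higher over all genes), and likewise for the percentile of the strongest peak (1.26% and 4.6%) and its width (12.7% and 0.166%). At the start site, 0 of 4 members were called by width (14.6% lower and 0.0888% higher) or by percentile (1.39% and 3.69%). Divided by the median width of its list, the start-site width was larger with 3MB-PP1 at all 4 members, and without overlap at PLK2 and PLK4, where 1% of genes were lower and 24.9% higher. Counts of 0 over 4 or 5 genes do not show that the members were unaffected. Over 19974 genes the covered length had a median difference of -186.875 bp, with 1467 genes at an unadjusted exact p of 0.0286 and none below an adjusted p of 0.389. Taken as a share of each list's total covered length the median difference was 0, and 2.38% of genes were lower and 2.87% higher.

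Genes of the same pathway, in 4 lists of 56 genes chosen from general knowledge, were counted in the same way. For covered length, 1 of 56 was lower without overlap and 0 higher, with a median difference of -39 bp (-186.875 bp over all genes). The 1 was PKMYT1, the kinase that holds CDK1 inactive at membranes until PLK1 and CDK1 act on it, with 3409.75 ± 352 bp with DMSO and 2870.75 ± 123 bp with 3MB-PP1 (SD, n = 4 each, two-sided exact permutation p = 0.0286, adjusted p = 0.389). Of the 42 with a start-site peak in all 8 lists, 4 had a narrower one without overlap and 0 a wider one. These were CEP192, which recruits PLK1 and PLK4 to centrosomes (-133.75 bp), NEDD1, which brings the gamma-tubulin ring complex to spindle poles (-400.5 bp), and the centriole duplication genes CEP85 (-298.75 bp) and CEP63 (-239.25 bp). The 4 of 42 stand beside 14.6% over all genes.

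At the start sites of the pathway genes, 1 of 42 percentiles was lower without overlap and 3 were higher, beside 1.39% and 3.69% over all genes (10.5% and 2.55% in lists of equal length). These were PPP1R12A, the phosphatase subunit that opposes PLK1 (-0.0459 points), and CENPU (0.154 points), BUB1 (0.491 points) and CEP85 (0.615 points). The differences ran from -11.4 points at SASS6, which builds the centriole cartwheel, to 2.34 points at MYBL2, both with overlapping groups. CENPU and BUB1 are docking partners of PLK1 at kinetochores. In the 14 genes of activation and mitotic entry the largest differences in covered length were at CEP192 (1366 bp), BTRC (1334 bp) and CDC25C (887 bp), none of them past the threshold (two-sided exact permutation p = 0.457, 0.257 and 0.0857). In the 17 docking partners and substrates they were at NUDC (-1146.5 bp), KIZ (-891.5 bp) and CLSPN (-692 bp), also with overlapping groups. In the 11 centriole genes CEP63 (-1771.5 bp), CEP85 (-1082.5 bp) and PCM1 (812.5 bp) led, and in the 14 transcription regulators of mitotic genes RBL1 (1311.75 bp), E2F1 (-895.25 bp) and LIN52 (-598.5 bp), all with overlapping groups.

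Each member was also matched with the 3 genes most like it, by the mean absolute difference over the 8 lists in strongest-peak percentile plus that in the covered share of the window. For PLK1 these were AKR1E2, CDCP1 and GRAMD2A, at summed differences of 2.99 to 3.50 points, and for PLK2 TMEM151A, FZD4 and TUT1 (2.08 to 2.19 points). ATG9A, CNN2 and AP2M1 were nearest to PLK3 (1.45 to 1.90 points), ARL6IP6, ATXN3 and HADHB to PLK4 (0.463 to 0.505 points), and PI16, BIK and CERS4 to PLK5 (3.46 to 3.75 points). PLK4 had the closest matches, and PLK5 and PLK1 the most distant. What set these distances was not tested. No pathway gene was among these 15.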

How the data were processed

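The 8 ATAC-seq libraries were assigned to DMSO or 3MB-PP1 (4 each) and numbered from their titles. Per the labels' protocols the work is described up to the sequencing library; the submitters' processing notes name MACS2, DESeq2 and build hg38, with no version or role. The aligner, read filters, Tn5 shift and calling control are not given in the sources used here and could change number and width of peaks. Each deposited list gives position, length, pileup, -log10 p, fold enrichment and -log10 q. The deposited pileup is a signal (coverage), the deposited fold a ratio to local background, and -log10 p and -log10 q, as deposited, rate each peak within its list.

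Genes, start sites and promoter sequences came from RefSeq tables (GRCh38.p14); PLK1 to PLK5 all matched, PLK1 to PLK4 with a strand. Peaks on chromosomes 1 to 22 and X were used. For each of 19974 protein-coding genes, peaks in the gene and 5 kb either side gave a covered length, a number, and the percentile and width of the strongest peak; the start-site peak gave width, percentile and reach. Means of the groups were tested by two-sided exact permutation over 70 assignments (smallest p 0.0286), with Benjamini-Hochberg adjustment over all genes measured; a gene was called when the groups did not overlap. Percentiles were ranked by pileup. The members, gene lists and tests were chosen with earlier results of these data known, and the start-site measures, the reach and the PLK5 region after the lists had been read. Named beside the members were neighbours in a window, the 3 genes most like each member and the 3 pathway genes per list with the largest difference in covered length; the other pathway genes named were those called.

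Same-numbered libraries deviated together over genes (correlations of 0.508, 0.203, 0.464 and 0.327 for replicates 1 to 4). DMSO replicate 2 correlated more with 3MB-PP1 replicate 4 (0.342), and DMSO replicate 4 with 3MB-PP1 replicate 2 at 0.286. The numbers thus pair replicates 1 and 3, but not clearly 2 and 4. Exact permutation within pairs of the same number was an alternative (smallest p 0.125). Other alternatives were the window, a minimum -log10 q of 5, equal list lengths, other ranks and scales, and leaving out libraries. As a check for duplicated lists, peaks with identical coordinates in 2 lists were at most 0.0339% of the shorter list. Overlap was common, with 36624 merged regions called in all 8 lists. Scripts ran in Python 3.11.15 with pandas 2.3.3, numpy 2.4.6 and matplotlib 3.10.9, and were tested on simulated data.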

Additional observations from a re-analysis of the deposited data

Results flagged for a closer look

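In 72 sets of 4 libraries (member, measure and treatment), 10 held a library whose gap to the nearest other was more of the range than Dixon's 95% value. The rate of 1 in 20 by chance holds for independent sets of continuous values. Here some sets repeat the same peak, and a number of peaks that differs from tied others passes by construction. The count of 10 therefore cannot be set against that rate. At PLK1, DMSO replicate 4 was far below the others in start-site percentile (82.3, others 91.4 to 93.3) and above them in number of peaks (4, others 2). At PLK2, DMSO replicate 1 had a covered length of 3829 bp (others 1842 to 2067 bp), and 3MB-PP1 replicate 3 had 3 peaks (others 1). At PLK3, 3MB-PP1 replicate 3 had 4 peaks (others 2). At PLK4, 3MB-PP1 replicate 2 was lowest in the width of its 1 peak, which is also its covered length, start-site width and strongest-peak width (1010 bp, others 1089 to 1100 bp), so these 3 are 1 observation. The upstream reach of that same peak was 244 bp (others 341 to 356 bp), which is not a separate observation either. In DMSO replicate 3 the PLK4 upstream reach was highest (393 bp, others 356 to 361 bp). The causes of these gaps were not tested.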

How the results depend on the processing

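All differences are 3MB-PP1 minus DMSO. Nearly all member results miss the threshold as reported, so a change of sign among them is a change within the spread. With depth unknown, whether a peak missing from a list lacks signal cannot be told. Equal lists gave covered lengths of -164.5 bp at PLK1 and -732 bp at PLK2 (exact permutation p = 0.0286), a start-site percentile of -0.905 points at PLK3 (exact permutation p = 0.0286) and the PLK5 region in 50 points more of the 3MB-PP1 lists. A minimum -log10 q of 5 gave 0 points for that region, covered lengths of -940 bp at PLK1, -63.5 bp at PLK2 and -1349.25 bp at PLK3, and -0.5 peaks at PLK3; PLK1 and PLK3 then lack a start-site peak in some lists and gave no start-site value, and the percentiles among these strong peaks differed by -14.6 at PLK2 and -13.8 at PLK4, with overlapping groups. Windows of 10 kb gave covered lengths of -131.75 bp at PLK1, 66.5 bp at PLK4 and 152 bp at PLK5. The strongest peak percentile of PLK5 was then 3.47 points higher with 3MB-PP1 without overlap (exact permutation p = 0.0286). In equal lists that of PLK3 differed by -0.877 points without overlap (exact permutation p = 0.0286). No share over all genes was taken for either. The gene body alone gave 30.75 bp at PLK3 and 17 bp at PLK4, 0.25 peaks at PLK1, and strongest widths of -26.75 bp at PLK1 and 36.5 bp at PLK5; the widest peak gave -26.75 and 155.5 bp. As a share of the list's covered length, PLK4's differed by 1.15 ppm. Divided by the list's median width, start-site widths differed by 1.49 at PLK1, 1.33 at PLK2, 0.643 at PLK3 and 0.874 at PLK4, and strongest widths by 1.33, 0.439 and 0.874 at PLK2, PLK3 and PLK4; on this scale 24.9% of genes were higher without overlap, as were PLK2 and PLK4. Rank by fold gave start-site percentiles of -18.3 at PLK1, 0.241 at PLK2, also for its strongest peak, -7.78 at PLK3 and -0.381 at PLK4, and -14.6 for PLK5's strongest peak. The causes were not tested.

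Replicates 1 and 3 alone gave 0.5 peaks and a strongest width of -45 bp at PLK1, downstream reaches of 6 bp at PLK2 and -6 bp at PLK4, and a percentile of 0.161 at PLK3. Replicates 2 and 4 alone gave reaches at PLK1 of -68 bp downstream and 59.5 bp upstream, -1.5 bp downstream at PLK3, and a strongest width of 13.5 bp at PLK5. Under the replicate block, the PLK3 upstream reach of -253 bp had an exact permutation p of 0.125, the smallest that this scheme can give, so no call of any setting, the 4 against 0 at PLK5 included, could be past the threshold within pairs.

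Leaving out each library in turn gave covered lengths of -184 to 344 bp (PLK1), start-site widths of -97.75 to 67 bp (PLK1) and -286 to -116 bp (PLK3, with an exact permutation p of 0.0286 without DMSO replicate 4), and start-site percentiles of -5.23 to -1.59 (PLK1), -0.385 to 0.0263 (PLK2, also for its strongest peak), -0.511 to 0.0473 (PLK3) and -0.296 to 0.0333 (PLK4, also strongest). At PLK1 it gave -0.5 to 0.25 peaks, strongest widths of -87 to 435 bp and reaches of -102.25 to 48.75 bp upstream and -19.2 to 113 bp downstream. The PLK4 upstream reach lay between -59.1 and -21.75 bp. The PLK3 upstream reach lay between -320 and -136 bp, with exact permutation p of 0.0857, 0.114, 0.143 and 0.114 without 3MB-PP1 replicates 1 to 4.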
